A study of Mus musculus with 9 samples.

Results

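The 7 genes followed here are the CC chemokine genes Ccl3, Ccl4, Ccl5, Ccl6 and Ccl9, and Il1r1 and Il1rap, which encode the parts of the signalling receptor for interleukin-1. They are 7 of the 56262 genes in the count tables. They were chosen by name, with their levels across the 3 groups of libraries already known, so their values in these groups are a description and carry no test.

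RNA was sequenced from mouse cells that the labels call long-term hematopoietic stem cells (LT-HSCs), in 9 libraries from C57BL/6 WT mice. The sort kept cells without lineage markers that carried Sca1, c-Kit and CD150, with a last marker that the labels write as C48-. The 3 libraries of Control came from untreated mice. The 3 libraries of 5-FU+Saline came from mice given 5-FU (5-fluorouracil, which blocks DNA synthesis and so spares resting cells) at 250 mg/kg and then PBS. The 3 libraries of 5-FU+FMT came from mice given the same 5-FU dose and then FMT, which the labels do not spell out, at 5 mg/kg into a vein after 1, 4 and 7 days. Cells of the 5-FU groups were taken at day 8, and no label gives the age or sex of the mice. The labels do not say whether each library is a separate mouse, so p-values measure only the spread between these libraries, which may be technical.

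CC chemokines are small secreted proteins that bind G protein-coupled receptors on leukocytes and direct their movement. The products of Ccl3 and Ccl4, also called MIP-1alpha and MIP-1beta, are best known from activated macrophages, and MIP-1alpha has long been studied as an inhibitor of stem cell proliferation in bone marrow. Interleukin-1 binds the receptor encoded by Il1r1, which recruits the accessory protein encoded by Il1rap and signals through MyD88, IRAK kinases and TRAF6 to NF-kB; in stem cells of the marrow this signal is known to favour myeloid output.

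Library depth was 11098031 to 19270976 counts, and levels are given as CPM, the count relative to the library's total after TMM scaling (which allows for a few genes that take many reads). All 10 genes of an LT-HSC marker list had counts and were tested. By edgeR's quasi-likelihood test, at a Benjamini-Hochberg adjusted p under 0.05, 5 rose and 3 fell in 5-FU+Saline against Control. Of all genes tested, 32.8% rose and 32.7% fell. The median log2 fold change of the 10 was 0.33. Their summed level, led by Kit and Hlf, was 1759 to 1767 CPM in Control, 1303 to 1312 CPM in 5-FU+Saline and 1465 to 1526 CPM in 5-FU+FMT. Of the genes behind the sort, Slamf1 (CD150) was at 8.35, 34.5 and 24.4 CPM in the 3 groups in that order, and Cd48 was at 30.7, 53.7 and 46.7 CPM. Cd34 and Flt3 were at 559 and 584 CPM in Control, at 274 and 70.9 CPM in 5-FU+Saline and at 413 and 279.5 CPM in 5-FU+FMT. They lead a list of 5 genes taken as marks of cells other than LT-HSCs, with Cd48, Il7r and Fcgr3. The labels name neither CD34 nor Flt3 among the sort markers, so these levels do not show cells from outside the sort. Of the 5, 2 rose and 3 fell in 5-FU+Saline against Control. In bulk RNA, fewer cells of a type and less RNA per cell cannot be told apart.

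The 5 chemokine genes lie on mouse chromosome 11 within 138.9 kb. The upstream sequence is shown for Ccl3, which had the largest difference among the 7 genes, and for the 2 windows in which a motif match was found, those of Ccl9 and of the later of 2 Il1r1 starts. Each is the 250 bases before the start of transcription, 5′ to 3′ on the gene's strand, from RefSeq on GRCm38.p6. Capitals mark a match to the NF-kB motif. Ccl3 is read from chr11:83649379-83649628 on the minus strand, Ccl9 from chr11:83578637-83578886 on the minus strand, and Il1r1 from chr1:40266336-40266585 on the plus strand.
Ccl3: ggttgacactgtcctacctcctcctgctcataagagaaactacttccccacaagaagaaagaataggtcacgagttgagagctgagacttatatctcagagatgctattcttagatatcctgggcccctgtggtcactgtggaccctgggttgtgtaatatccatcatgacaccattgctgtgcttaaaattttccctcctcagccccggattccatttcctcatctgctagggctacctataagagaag
Ccl9: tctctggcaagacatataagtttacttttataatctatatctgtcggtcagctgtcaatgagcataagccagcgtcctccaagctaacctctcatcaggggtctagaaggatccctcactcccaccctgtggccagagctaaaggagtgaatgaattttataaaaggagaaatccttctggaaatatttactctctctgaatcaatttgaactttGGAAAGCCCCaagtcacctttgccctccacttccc
Il1r1: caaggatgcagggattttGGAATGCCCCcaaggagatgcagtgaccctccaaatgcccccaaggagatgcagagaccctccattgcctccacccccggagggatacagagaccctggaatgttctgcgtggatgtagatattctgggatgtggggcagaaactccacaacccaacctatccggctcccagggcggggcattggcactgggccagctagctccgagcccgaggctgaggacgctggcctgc

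The table held windows for 5 of the 7 genes: Ccl3, Ccl6, Ccl9, Il1rap and, with 2 starts, Il1r1. Windows of 300 bases, 250 before and 50 after the start, were searched on both strands for 4 motifs: NF-kB, AP-1 (TGACTCA or TGAGTCA), the cyclic AMP response element TGACGTCA, and an ETS motif of the PU.1 type, GAGGAAGT. No motif overlapped another in these windows. The NF-kB motif matched as GGGGCTTTCC 35 bases before the start of Ccl9 and as GGGGCATTCC 232 bases before the later start of Il1r1. Both matches are on the strand opposite to the gene, so the printed strand shows the reverse complement. The other 4 windows held no match to any of the 4 motifs. Of 32851 promoter windows of the same length, 4.51% held the NF-kB motif, 5.2% AP-1, 1.79% the cyclic AMP element and 3.2% the ETS motif. Gene counts do not tell which of the Il1r1 starts was used.

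Ccl3 (chromosome 11, 83647844 to 83649355 on mm10, minus strand) was the gene with the widest range. Its Control libraries stood at 110.2, 107.3 and 107.5 CPM, its 5-FU+Saline libraries at 0.793, 0.318 and 0.671 CPM, and its 5-FU+FMT libraries at 40.9, 35.7 and 39.7 CPM. The 3 groups do not overlap, and the 5-FU+Saline values rest on 12, 5 and 13 counts. The group means were 108 ± 1.64, 0.594 ± 0.247 and 38.8 ± 2.70 CPM (SD, n = 3). The level in 5-FU+Saline was 179-fold lower than in Control, a log2 fold change of -7.48 (SE 0.12). Ranked by fitted log2 fold change from the lowest, Ccl3 was number 20 of 16595 genes. The level in 5-FU+FMT was 64.1-fold above that in 5-FU+Saline, with a log2 fold change of 6.00 (SE 0.14), and 2.79-fold below that in Control, with a log2 fold change of -1.48 (SE 0.063).

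Ccl4 (chromosome 11, 83662584 to 83664683, plus strand) is the neighbour of Ccl3, on the other strand, and their starts lie 13.2 kb apart. Its Control libraries stood at 100.01, 100.04 and 101.4 CPM, its 5-FU+Saline libraries at 1.85, 2.99 and 2.48 CPM, and its 5-FU+FMT libraries at 38.4, 32.2 and 41.5 CPM. The groups stand in the same order as for Ccl3 and again do not overlap. The means were 100.5 ± 0.768, 2.44 ± 0.571 and 37.4 ± 4.70 CPM (SD, n = 3). The log2 fold change was -5.35 (SE 0.10) in 5-FU+Saline against Control, 3.93 (SE 0.12) in 5-FU+FMT against 5-FU+Saline, and -1.43 (SE 0.067) in 5-FU+FMT against Control. Per kilobase of exon, the level of Ccl3 and Ccl4 was 141 and 152 CPM per kb in Control and 50.6 and 56.6 CPM per kb in 5-FU+FMT. In 5-FU+Saline the lowest Ccl4 library, at 2.80 CPM per kb, was above the highest Ccl3 library, at 1.04 CPM per kb.

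Ccl9 (chromosome 11, 83572919 to 83578636, minus strand) encodes a chemokine made by myeloid cells and a ligand of the receptor CCR1. Its libraries stood at 33.4, 31.0 and 32.6 CPM in Control, at 4.23, 4.64 and 4.08 CPM in 5-FU+Saline, and at 14.9, 16.6 and 16.3 CPM in 5-FU+FMT. The 3 groups do not overlap, with the order seen for Ccl3 and Ccl4 and a narrower range. The means were 32.3 ± 1.23, 4.32 ± 0.293 and 15.9 ± 0.927 CPM (SD, n = 3), and the log2 fold changes were -2.91 (SE 0.12), 1.88 (SE 0.13) and -1.03 (SE 0.097) in the 3 comparisons, in the order used above. Of the 50-base words in the Ccl9 transcripts, 1.97% also occur in transcripts of other genes, so a small part of its reads may not have been placed.

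Ccl6 (chromosome 11, 83587882 to 83593087, minus strand) is the nearest relative of Ccl9 in the cluster and was close to the limit of detection. It had 12 to 41 counts in a library. Its levels were 1.57, 1.74 and 2.19 CPM in Control, 1.26, 0.827 and 0.878 CPM in 5-FU+Saline and 0.772, 1.40 and 1.30 CPM in 5-FU+FMT. Every library of the 5-FU groups lay below every Control library, whereas the libraries of the 5-FU groups overlapped each other. The log2 fold changes were -0.91 (SE 0.39), 0.23 (SE 0.41) and -0.68 (SE 0.39) in the same order.

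Ccl5 (chromosome 11, 83525778 to 83530518, minus strand), the gene of RANTES, a chemokine best known from T and NK cells, was the single member that stood higher after 5-FU. Its levels were 1.94, 2.93 and 2.72 CPM in Control, 4.83, 4.90 and 4.70 CPM in 5-FU+Saline and 3.73, 4.35 and 4.33 CPM in 5-FU+FMT, from 26 to 91 counts in a library. The groups do not overlap and the 5-FU+FMT libraries lie between the others. The log2 fold changes were 0.92 (SE 0.23), -0.22 (SE 0.21) and 0.71 (SE 0.23). Of the 14 genes of a T and NK cell list, all with counts, 11 could be tested. In 5-FU+Saline against Control 5 rose and 2 fell by edgeR's quasi-likelihood test, at a Benjamini-Hochberg adjusted p under 0.05. Of all genes tested, 32.8% rose and 32.7% fell. The summed level of the 14 was 63.5 to 72.5 CPM in Control, 47.3 to 49.5 CPM in 5-FU+Saline and 54.8 to 59.6 CPM in 5-FU+FMT, led by Nkg7 and Cd4, and its part in the Ccl5 values was not tested.

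**Figure D1:**
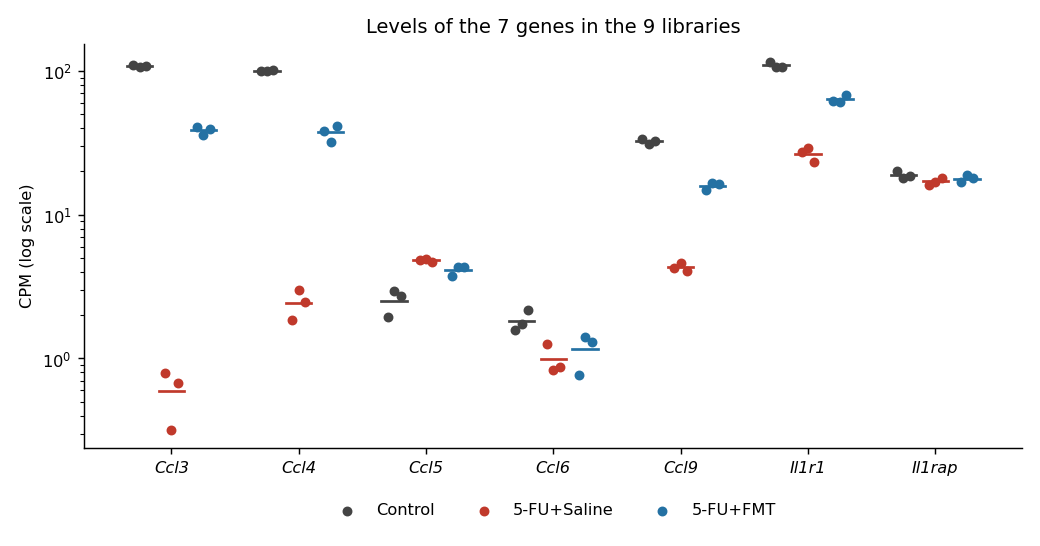
Level in CPM (vertical axis, log scale) of the 7 genes in each of the 9 libraries; each point is 1 library and each short line the mean of a group of 3. Ccl3, Ccl4, Ccl9 and Il1r1 are highest in Control, lowest in 5-FU+Saline and between them in 5-FU+FMT, while the Il1rap libraries overlap at 16.2 to 20.1 CPM.

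Il1r1 (chromosome 1, 40225080 to 40317257, plus strand) encodes the ligand-binding chain of the interleukin-1 receptor. Its Control libraries stood at 114.7, 106.8 and 106.5 CPM, its 5-FU+Saline libraries at 27.1, 28.9 and 23.4 CPM, and its 5-FU+FMT libraries at 61.6, 60.5 and 68.0 CPM. The 3 groups do not overlap and stand in the order seen for Ccl3, Ccl4 and Ccl9. The means were 109 ± 4.65, 26.5 ± 2.80 and 63.4 ± 4.02 CPM (SD, n = 3). The level in 5-FU+Saline was 4.15-fold below Control, with a log2 fold change of -2.05 (SE 0.062). In 5-FU+FMT it was 2.41-fold above 5-FU+Saline, with a log2 fold change of 1.27 (SE 0.065), and 1.73-fold below Control, with a log2 fold change of -0.79 (SE 0.056).

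Il1rap (chromosome 16, 26581704 to 26730117, plus strand) encodes the accessory chain that the receptors for interleukin-1, interleukin-33 and interleukin-36 share. Its libraries stood at 20.1, 18.1 and 18.7 CPM in Control, at 16.2, 16.9 and 18.1 CPM in 5-FU+Saline, and at 16.8, 18.7 and 17.9 CPM in 5-FU+FMT. All 3 groups overlap. The log2 fold changes were -0.15 (SE 0.10), 0.056 (SE 0.10) and -0.091 (SE 0.10). Of the receptor's chains, the Il1r1 mean ranged from 26.5 to 109 CPM and the Il1rap mean from 17.1 to 18.9 CPM. Gene counts add the membrane and the soluble forms of the accessory protein. Il1rap shares 552 exon bases with Gm20319 on the other strand, which had 0 to 11 counts in a library, and without strand in the counting their reads there cannot be told apart.

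Of the 7 genes, all of which passed the filter on low counts, 5 stood lower and 1 higher in 5-FU+Saline than in Control with no overlap of libraries, where 67.8% of the 16595 genes tested had no overlap. In 5-FU+FMT against 5-FU+Saline, 4 stood higher and 1 lower without overlap, where 46.3% of genes had none. In 5-FU+FMT against Control, 5 stood lower and 1 higher, where 52.7% of genes had none. The median log2 fold change of the 7 genes was -2.05, 1.27 and -0.79 in the 3 comparisons. Since the genes were chosen on these levels, nothing is read from the counts. The comparisons share groups of libraries, so they are not independent of each other.

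**Figure D2:**
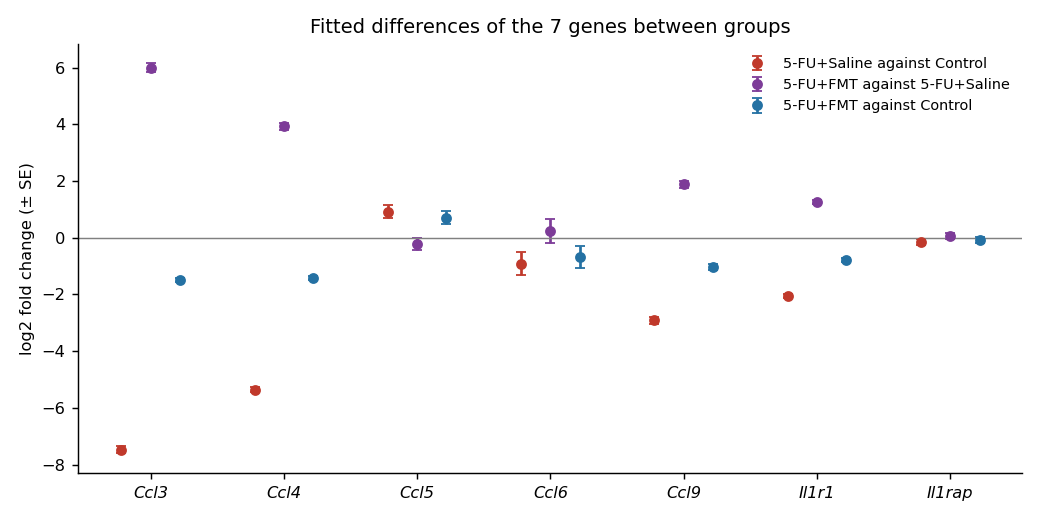
Log2 fold change (vertical axis) of the 7 genes in each of the 3 comparisons; points are fitted values and bars are ± 1 SE. Ccl3 runs from -7.48 in 5-FU+Saline against Control to 6.00 in 5-FU+FMT against 5-FU+Saline, and all 3 Il1rap points lie near 0.

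On the linear CPM scale, the mean of 5-FU+FMT lay 35.5% of the way from the 5-FU+Saline mean to the Control mean for Ccl3, 35.6% for Ccl4, 41.4% for Ccl9 and 44.5% for Il1r1. The background was the 611 genes at least 2-fold lower in 5-FU+Saline than in Control, at an edgeR adjusted p under 0.05. Each had a mean of at least 10 CPM in a group. Over these 611 genes the median position was 37.5% (quartiles 33.2% and 43.0%). Ccl3, Ccl4 and Ccl9 lay within those quartiles, and Il1r1 lay just above them.

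Per kilobase of exon, the order of the 7 genes in Control was Ccl4 at 152 ± 1.16, Ccl3 at 141 ± 2.14, Il1r1 at 17.2 ± 0.731, Ccl9 at 10.6 ± 0.403, Ccl5 at 2.64 ± 0.545, Il1rap at 1.67 ± 0.0897 and Ccl6 at 1.02 ± 0.178 CPM per kb (SD, n = 3). No neighbours in that order overlap between their libraries. In 5-FU+Saline the order was Ccl5 at 5.01, Il1r1 at 4.16, Ccl4 at 3.70, Il1rap at 1.504, Ccl9 at 1.42, Ccl3 at 0.776 and Ccl6 at 0.550 CPM per kb. There Ccl3 had moved from the second place to the sixth, and Il1r1 and Ccl4, Il1rap and Ccl9, and Ccl3 and Ccl6 overlap between libraries. In 5-FU+FMT the order was that of Control, from Ccl4 at 56.6 to Ccl6 at 0.646 CPM per kb, with the libraries of Ccl4 and Ccl3 overlapping.

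Immediate early genes, the transcription factors and regulators that respond first when a cell is stimulated or handled, moved with the same groups. All 12 of a list of them fell in 5-FU+Saline against Control and rose in 5-FU+FMT against 5-FU+Saline. Of all genes tested, 32.7% fell and 32.8% rose in the first comparison, and 17.7% rose in the second. The summed level of the 12 was 26824 to 26976 CPM in Control, 4122 to 4172 CPM in 5-FU+Saline and 11569 to 12637 CPM in 5-FU+FMT, led by Fosb and Jun. All 7 myeloid progenitor genes fell and rose likewise, with sums of 2579 to 2621, 204 to 213 and 1024 to 1148 CPM, led by Mpo and Prtn3. Of 9 mast cell and basophil genes, 7 fell and 2 rose in 5-FU+Saline against Control, with sums of 111 to 113, 21.6 to 22.6 and 69.0 to 72.4 CPM, led by Prss34 and Cpa3. The part of these lists in the levels of Ccl3, Ccl4, Ccl9 and Il1r1 was not tested.

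Monocytes and macrophages are the usual source of these chemokines, and their 12 markers, all with counts, summed to 222 to 246 CPM in Control, 171 to 178 CPM in 5-FU+Saline and 182 to 191 CPM in 5-FU+FMT, led by Lyz2 and Ly6c2. Of these, 6 rose and 5 fell in 5-FU+Saline against Control, where 32.8% of all genes tested rose and 32.7% fell. Lyz2 stood at 86.0, 107 and 101 CPM in the 3 groups, and Ly6c2 at 85.5, 8.59 and 33.0 CPM. The lower sum in 5-FU+Saline is carried by Ly6c2. The median log2 fold change of the 12 was -0.012 in 5-FU+Saline against Control. Of 11 neutrophil genes, 8 could be tested and 7 rose in the same comparison; they summed to 10.5 to 14.2, 43.6 to 52.8 and 24.4 to 29.6 CPM, led by S100a9 and S100a8. All 9 B cell genes rose, with sums of 53.1 to 54.0, 864 to 880.2 and 404 to 443 CPM, and 8 of 9 endothelial genes rose, with sums of 268 to 291, 369 to 382 and 309 to 330.5 CPM, led by Tie1 and Tek. The part of these lists in the levels of the 7 genes was not tested.

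The genome around the cluster was read to 100 kb on each side, which gave 20 genes, 15 of them not among the 7. Of those 15, 6 passed the filter and 6 others of the 20 had no count in any library. In 5-FU+Saline against Control, 5 of the 6 tested fell and none rose, where 32.7% of all genes tested fell and 32.8% rose. Wfdc17, a gene of the WAP four-disulfide core family 39.3 kb beyond Ccl4, stood at 23.1 ± 1.18 CPM in Control, 0.396 ± 0.241 CPM in 5-FU+Saline and 9.49 ± 0.471 CPM in 5-FU+FMT (SD, n = 3). It fell by 5.82 on the log2 scale (SE 0.21, edgeR adjusted p = 1.9e-38) and rose by 4.55 in 5-FU+FMT against 5-FU+Saline (SE 0.24, edgeR adjusted p = 9.5e-28). Its 3 groups of libraries do not overlap and stand in the order seen for Ccl3 and Ccl4.

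Wfdc18 had 101 counts over the Control libraries, none in 5-FU+Saline and 43 in 5-FU+FMT. Taking 3 counts over the group as the limit that a count of 0 allows, it was at least 39.2-fold higher in Control and at least 16.5-fold higher in 5-FU+FMT than in 5-FU+Saline, counting error only. Wfdc21 stood at 1.59, 0.193 and 0.519 CPM and fell in 5-FU+Saline against Control (edgeR adjusted p = 7.7e-06). It had 21, 18 and 29 counts in the Control libraries and 0 to 12 in the others. Wfdc18 and Wfdc21 owe their pass of the filter to the Control libraries, and both are among the 5 of 6 tested genes that fell. That count is therefore partly set by the filter. On the other side of the cluster, Mmp28, a matrix metalloproteinase gene, stood at 11.7, 1.89 and 5.70 CPM, fell by 2.66 on the log2 scale (SE 0.20, edgeR adjusted p = 5.9e-20) and rose by 1.62 in 5-FU+FMT against 5-FU+Saline (SE 0.22, edgeR adjusted p = 2.8e-09). The gene 1700020L24Rik, which overlaps Mmp28 on the other strand, fell from 6.30 to 1.35 CPM (edgeR adjusted p = 5.5e-12), and reads where the genes overlap cannot be told apart.

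Between these genes and Ccl5 lies Taf15, which encodes an RNA-binding protein and ends 19.0 kb from Ccl5. It stood at 213 ± 1.72, 219 ± 7.97 and 214 ± 3.97 CPM (SD, n = 3), with a log2 fold change of 0.042 (SE 0.033, edgeR adjusted p = 0.26) in 5-FU+Saline against Control. Mmp28 on its one side and Wfdc17 beyond the cluster fell, while Taf15 and Ccl5 were not lower.

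**Figure D3:**
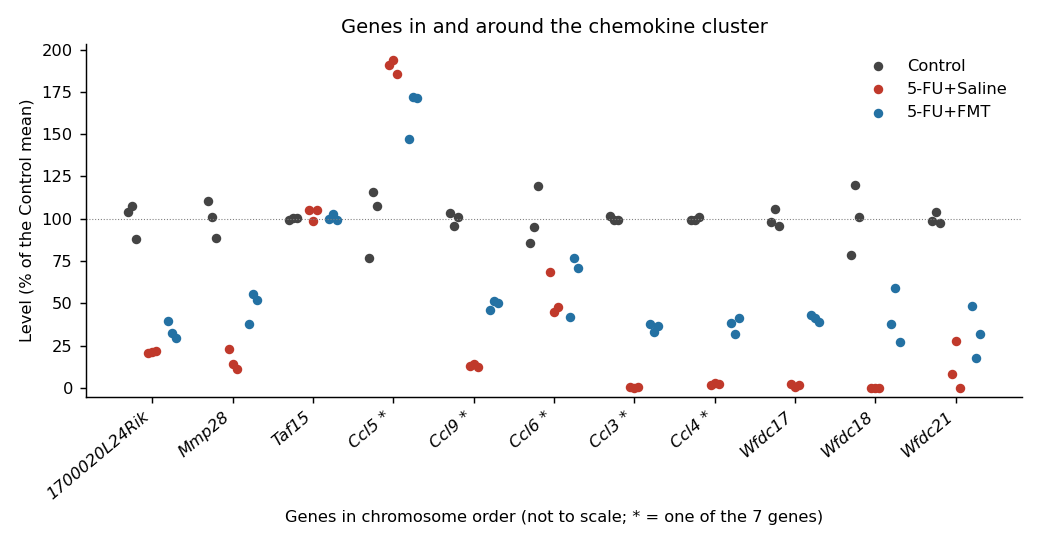
Level of each gene in and around the chemokine cluster as a percentage of its Control mean (vertical axis), in chromosome order; each point is 1 library. Ccl3, Ccl4, Wfdc17 and Wfdc18 lie near 0 in 5-FU+Saline and higher in 5-FU+FMT, Taf15 stays near the dotted line at 100%, and Ccl5 lies above it in both 5-FU groups.

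The pathway around the 7 genes was read from 7 lists with 90 genes, of which 62 passed the filter. In 5-FU+Saline against Control 19 of the 62 rose and 30 fell, where 32.8% of all genes tested rose and 32.7% fell. Some of the 19, such as Ccr3 and Il1rn, owe their pass of the filter to the 5-FU libraries, so that count is partly set by the filter. The median log2 fold change of the 62 was -0.20, and that of all genes tested was -0.021. In 5-FU+FMT against 5-FU+Saline 16 rose and 10 fell, where 17.7% of all genes tested rose and 19.2% fell; without 5-FU+FMT replicate 3 the 10 that fell became 6. In 5-FU+FMT against Control 14 rose and 21 fell, where 25% of all genes tested rose and 21.6% fell. Without 5-FU+FMT replicate 1 the 14 that rose became 9.

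Other CC chemokines were mostly at or near 0: of 16, 4 passed the filter and 6 had no count. Ccl27a fell from 13.3 ± 2.88 CPM in Control to 6.61 ± 0.951 CPM in 5-FU+Saline (SD, n = 3; edgeR adjusted p = 3.9e-08), and Ccl25 stood at 8.63 and 7.93 CPM (edgeR adjusted p = 0.46). Of 15 CC chemokine receptor genes 13 were tested. In 5-FU+Saline against Control 7 rose and 2 fell, where 32.8% of all genes tested rose and 32.7% fell. Among the 7, Ccr3, Ccr6, Ackr1 and Ackr2 had Control means of 0.109, 0.245, 0.410 and 0.160 CPM. They owe their pass of the filter to the 5-FU libraries, so the count that rose is partly set by the filter. Ccr2, the receptor that draws monocytes out of the marrow, rose from 11.5 ± 1.31 to 22.3 ± 2.13 CPM (edgeR adjusted p = 6.6e-12). Ccr9 fell from 25.9 ± 1.10 to 18.3 ± 0.193 CPM (edgeR adjusted p = 2.2e-06) and Ccrl2 fell from 28.9 ± 2.53 to 21.7 ± 1.60 CPM (edgeR adjusted p = 3.6e-05). Ccr1, a receptor of Ccl3, Ccl5 and Ccl9, stood at 0.716, 0.685 and 1.25 CPM in the 3 groups and did not pass the test in any comparison. It lies under the 5 CPM set for named genes and is given because it binds these chemokines.

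Of the chemokines of other classes, 4 of the 10 tested rose and 3 fell in 5-FU+Saline against Control, near the 32.8% and 32.7% of all genes tested. Among the 4, Cxcl9 and Cxcl14 had Control means of 0.347 and 0 CPM and owe their pass of the filter to the 5-FU libraries. The count that rose is therefore partly set by the filter. Cxcl12, which retains stem cells in the marrow and is made by its stroma, rose from 2.32 ± 0.384 to 127 ± 2.54 CPM and stood at 24.2 ± 1.23 CPM in 5-FU+FMT (SD, n = 3; edgeR adjusted p = 2.0e-61 and 3.7e-47 for 5-FU+Saline against Control and 5-FU+FMT against 5-FU+Saline). Of 11 stroma genes, 10 were tested, and 9 rose and 1 fell in 5-FU+Saline against Control. In 5-FU+FMT against Control 9 were also higher and 1 lower, where 25% of all genes tested rose and 21.6% fell. The median log2 fold change of the 10 there was 3.90. The list summed to 61.2 to 62.2, 143 to 146 and 59.4 to 63.5 CPM in the 3 groups, led by Pdgfrb and Igfbp5. Its part in the Cxcl12 level was not tested. Ppbp and Pf4, chemokines of platelets, fell from 6.24 to 1.23 CPM (edgeR adjusted p = 1.0e-11) and from 18.03 to 10.6 CPM (edgeR adjusted p = 4.8e-08). The 8 megakaryocyte genes, of which Gp1bb had no count, summed to 461 to 466, 230.0 to 240 and 295 to 309 CPM, and their part in these values was not tested.

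On the interleukin-1 side the ligands were scarce. Il1b stood at 0.257, 0.872 and 0.774 CPM in the 3 groups, Il1a at 0.264, 0.195 and 0.201 CPM, and Il1rn, the receptor antagonist, at 0.0782, 2.25 and 0.674 CPM; all 3 lie under 5 CPM and are given because their products bind the receptor made by Il1r1. Il1a did not pass the filter, while Il1b (edgeR adjusted p = 0.0060) and Il1rn (edgeR adjusted p = 1.1e-09) rose in 5-FU+Saline against Control. Il1b and Il1rn had 10 and 4 counts over the Control libraries and owe their pass of the filter to the 5-FU libraries. Their calls are therefore partly set by the filter. Il18, a relative of interleukin-1, fell from 15.3 ± 0.611 to 5.21 ± 1.21 CPM (SD, n = 3; edgeR adjusted p = 1.3e-15) and rose to 8.30 ± 0.888 CPM in 5-FU+FMT against 5-FU+Saline (edgeR adjusted p = 0.00032).

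All 8 genes of the machinery that cleaves and releases interleukin-1 were tested. In 5-FU+Saline against Control 7 fell and none rose, where 32.7% of all genes tested fell and 32.8% rose. Nlrp3, the sensor of the best known inflammasome, fell from 8.32 ± 0.746 to 1.13 ± 0.802 CPM and stood at 2.90 ± 0.350 CPM in 5-FU+FMT (SD, n = 3; edgeR adjusted p = 4.4e-16 and 0.00017 for 5-FU+Saline against Control and 5-FU+FMT against 5-FU+Saline). Aim2, a sensor of cytosolic DNA, fell from 97.4 ± 4.80 to 54.8 ± 2.03 CPM and stood at 71.6 ± 0.531 CPM in 5-FU+FMT (edgeR adjusted p = 2.9e-24 and 6.7e-09). Casp1, the protease that cleaves interleukin-1 beta, moved less, from 33.7 ± 2.43 to 29.5 ± 1.27 CPM (edgeR adjusted p = 0.030), a call lost without Control replicate 1, Control replicate 2 or 5-FU+Saline replicate 3 (edgeR adjusted p = 0.077, 0.14 and 0.14), with no filter (edgeR adjusted p = 0.17) and in DESeq2 (adjusted p = 0.061). Pycard, the adaptor, stood at 27.0 and 24.7 CPM (edgeR adjusted p = 0.19).

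Of 8 other receptor genes of the interleukin-1 family, 7 were tested. All 7 fell in 5-FU+Saline against Control, where 32.7% of all genes tested fell. In 5-FU+FMT against 5-FU+Saline 5 of the 7 rose, where 17.7% of all genes tested rose. Il1r2, the decoy receptor that binds interleukin-1 without signalling, fell from 6.54 ± 1.08 to 2.04 ± 0.167 CPM and stood at 2.52 ± 0.661 CPM in 5-FU+FMT (SD, n = 3; edgeR adjusted p = 2.1e-09 and 0.38). Il18r1 fell from 14.5 ± 1.35 to 8.98 ± 0.320 CPM and stood at 14.4 ± 1.68 CPM in 5-FU+FMT (edgeR adjusted p = 2.0e-06 and 4.7e-06). Il1rl1, the interleukin-33 receptor, fell from 38.6 ± 2.29 to 28.0 ± 1.62 CPM (edgeR adjusted p = 2.8e-07), and Sigirr, an inhibitory member, fell from 89.3 ± 2.15 to 63.2 ± 2.21 CPM (edgeR adjusted p = 1.1e-13). The falls in this list, at log2 fold changes of -0.34 to -1.67 among genes of at least 5 CPM, stand beside the Il1r1 difference of -2.05. Il1rapl2, under that level with 4 counts over the 5-FU+Saline libraries, fell from 0.777 to 0.0737 CPM, a log2 fold change of -3.18 (SE 0.77). It was named after its values were seen, so its p-value is not given.

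Inside the cell, all 16 genes of the receptor's signalling chain were tested, and 6 rose and 8 fell in 5-FU+Saline against Control, where 32.8% of all genes tested rose and 32.7% fell. Peli2, a ubiquitin ligase that acts on IRAK proteins, fell from 29.8 ± 3.25 to 11.5 ± 1.00 CPM and stood at 19.4 ± 1.96 CPM in 5-FU+FMT (SD, n = 3; edgeR adjusted p = 1.7e-20 and 9.0e-09). Irak2 fell from 23.7 ± 1.74 to 11.2 ± 1.09 CPM and stood at 16.9 ± 1.72 CPM in 5-FU+FMT (edgeR adjusted p = 5.2e-15 and 5.5e-06). The adaptor gene Myd88 rose from 32.0 ± 2.28 to 43.0 ± 4.07 CPM (edgeR adjusted p = 3.5e-07), and Tab2, which links TRAF6 to the kinase TAK1, rose from 168 ± 4.63 to 283 ± 4.28 CPM (edgeR adjusted p = 3.3e-33). Irak1 stood at 229.8 and 220.0 CPM (edgeR adjusted p = 0.069).

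**Figure D4:**
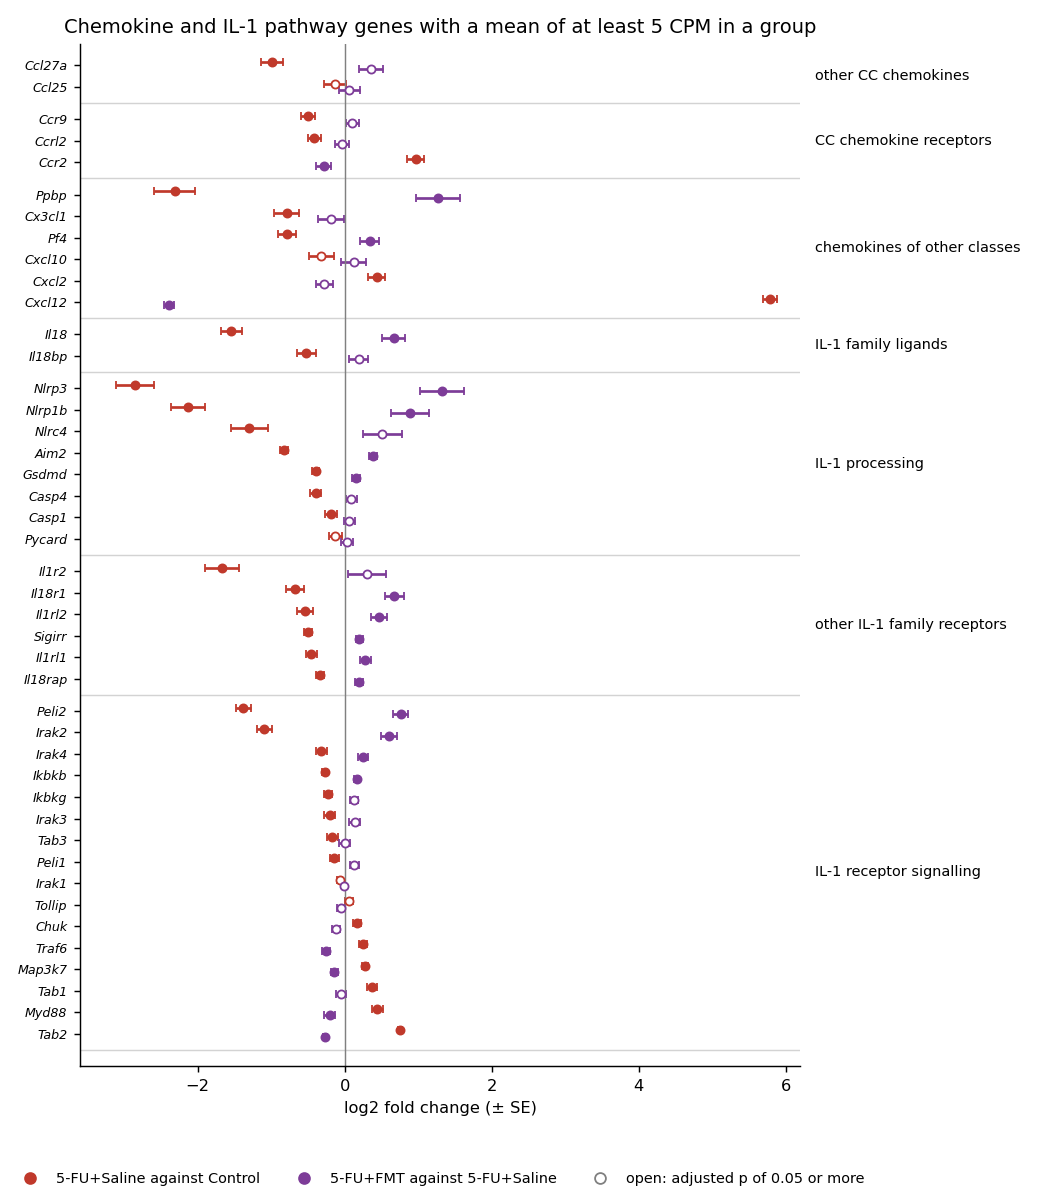
Log2 fold change (horizontal axis, ± 1 SE) of the pathway genes with a mean of at least 5 CPM in a group, by list, in 5-FU+Saline against Control and in 5-FU+FMT against 5-FU+Saline; open points did not reach an adjusted p under 0.05. Every gene drawn under IL-1 processing and under other IL-1 family receptors lies left of 0 in the first comparison, and Cxcl12 lies far to the right at 5.78.

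The genes whose pattern over the 9 libraries was most like that of each of the 7 were found by the root mean square difference of log2(CPM + 0.5), each gene set to its Control mean, among 10441 genes with a mean of at least 10 CPM in a group. For Ccl3 they were Hspa1a, Hspa1b and Elane, at differences of 0.20, 0.21 and 0.31; Hspa1a and Hspa1b are near-identical copies whose counts are uncertain 1 by 1. For Ccl4 they were Kel, Slc4a1 and Prss34, at 0.15, 0.16 and 0.21. The offset of 0.5 CPM compresses differences at low levels. In 5-FU+Saline Kel stood at 0.373 and Slc4a1 at 0.0857 CPM, where Ccl4 stood at 2.44 CPM, so their falls were not equal in fold. For Ccl9 they were Atp8b4, Dusp1 and Cyp26b1, at 0.12, 0.13 and 0.13. For Il1r1 they were Hnf4a, Gm20342 and Mfsd2b, at 0.058, 0.098 and 0.11.

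For Il1rap the nearest were Wdr20, Foxj3 and D16Ertd472e, at 0.027, 0.033 and 0.036. For Ccl5 they were Plod2, Kif18b and Hmga2, at 0.098, 0.099 and 0.10, and for Ccl6 they were Nod1, Pla2g6 and Klhdc8b, at 0.15, 0.16 and 0.16. Among the 7 genes themselves the nearest pairs were Ccl6 and Il1rap at 0.43, Ccl9 and Il1r1 at 0.45, and Ccl5 and Il1rap at 0.71, while Ccl3 and Ccl4 lay 0.94 apart. The offset also shrinks the differences of Ccl5 and Ccl6, whose levels are low. In 5-FU+Saline against Control the fitted log2 fold changes were 0.92 for Ccl5, -0.91 for Ccl6 and -0.15 for Il1rap. A small distance here therefore does not mean a shared direction.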

How the data were processed

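The deposited values are raw read pair counts per gene, with a table for each of the 9 libraries. Per the submitters' processing notes, the authors used Trim Galore (0.6.5), HISAT2 (2.2.1), SAMtools, featureCounts (2.0.1) and the mm10 build; exon counts were summed by gene on GENCODE M25 with no strand option, per the file headers, so overlapping antisense genes share reads. Of 56262 gene IDs, 55141 were given a symbol. Counts were filtered with filterByExpr (16595 genes left), scaled by TMM and fitted over all 9 libraries in edgeR 4.0.16 (quasi-likelihood F test; R 4.3.3; limma 3.58.1), with Benjamini-Hochberg adjusted p-values over all genes tested. The fit was tested on simulated data. Alternatives included DESeq2 1.42.0. The 7 genes and all lists were chosen with earlier results of these data known. Genes named from the pathway lists had a mean of at least 5 CPM in a group, from the marker lists the 2 highest (some are not reported here), near the cluster at least 1 CPM, and by likeness the 3 nearest with a symbol; Slamf1, Cd48, Ccr1, Il1a, Il1b and Il1rn were added for their role. Some genes under those levels are also named because the filter set part of a count. Of the list genes, 4 were matched through a synonym. Proteins were not used here.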

Additional observations from a re-analysis of the deposited data

How the results depend on the processing

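The 3 counts of genes called, and the 3 counts of pathway genes called, stayed within 1.5 times their value under every alternative run: RLE and upper-quartile scaling, no filter and a stricter one, DESeq2, limma-voom, the groups of a comparison alone, a replicate block and leaving out each library. By direction, pathway genes that rose went from 14 to 8 (stricter filter) and 9 (groups alone) in 5-FU+FMT against Control, and from 19 to 12 (stricter filter) in 5-FU+Saline against Control. With the replicate block, 10847 genes were called in 5-FU+Saline against Control, where the fit without it gave 10872. The numbers do not pair the libraries: deviations of same-numbered libraries correlated at -0.007 to 0.016 over 9 pairs. With upper-quartile scaling the split in 5-FU+FMT against Control was 3315 higher and 4559 lower, where TMM gave 4151 and 3584. No log2 fold change of the 7 genes changed sign under these alternatives or library size alone, except that Ccl6 dropped out under the stricter filter and has no value there; the Ccl3 value in 5-FU+Saline against Control ranged from -7.69 to -7.20. Among the 49 pathway and neighbouring genes named by level, 5, 5 and 9 calls in the 3 comparisons were lost under at least 1 alternative, and none reversed. Depth limits Ccl5 and Ccl6, with 26 to 91 and 12 to 41 counts in a library, and Ccl3 in 5-FU+Saline, with 5 to 13.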
